A study of Mus musculus with 17 samples.

Results

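The genes described here are 10 matrix proteases and protease inhibitors: the matrix metalloproteinases Mmp2, Mmp9 and Mmp14, the tissue inhibitors Timp1, Timp2 and Timp3, the secreted proteases Adamts1 and Adamts5, and the membrane proteases Adam10 and Adam17. They were picked by gene symbol, and all 10 were found among the 53379 genes of the deposited count table through their mouse Ensembl IDs in the GRCm38 annotation. All 10 also passed the low-count filter that left 17766 genes for testing. Messenger RNA had been sequenced from glomeruli-enriched kidney cortex of 17 BTBR mice. The first group, 7 mice labelled BTBR ob, were homozygous for ob, a loss-of-function allele of the leptin gene Lep, and received atrasentan, which blocks the endothelin receptor of type A, in their drinking water (5 mg/kg daily). The second group, 5 mice labelled ob/ob-d30, had the same genotype and were given saline. Both groups were treated from 18 weeks of age for 6 weeks. The third group, 5 mice labelled WT-d30, were BTBR wild type mice killed at the same age of 24 weeks, for which the labels name no treatment. The allele removes leptin from the whole animal, which makes BTBR mice obese and diabetic, so it is not a lesion of any kidney cell type. The labels do not explain d30. The design asks what differs in the diabetic kidney, and what differs after the receptor is blocked.

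Matrix metalloproteinases (MMPs) are zinc-dependent enzymes that cut collagens, laminins and other matrix proteins, and most are made as inactive proenzymes. The membrane-bound MMP14 activates the gelatinase proMMP2 at the cell surface, in a complex that TIMP2 helps to assemble, while TIMP2 in excess blocks MMP14. ADAM10 and ADAM17 cut the outer parts of membrane proteins, such as Notch receptors and the precursor of TNF, and ADAMTS proteases cut large proteoglycans such as versican. TIMP3 differs from the other TIMPs in that it binds to the matrix and also inhibits ADAM17 and the aggrecanases, which include ADAMTS5. In the glomerulus these enzymes act on the basement membrane and on the mesangial matrix, which expands in diabetic kidney disease.

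The sequences just upstream of the start sites of Mmp14, Timp3 and Adamts1 are shown, since Mmp14 was higher with atrasentan, Timp3 was higher in both ob/ob groups and Adamts1 was called in no comparison without a covariate. RefSeq promoters (GRCm38.p6) were at hand for 7 of the 10 genes, and those of Mmp2, Mmp9 and Adamts5 were not used here. Each runs 5′ to 3′ on the strand of its gene and stops at the RefSeq start site or before the first base that GENCODE places in an exon. Capitals mark the GC box GGGCGG, the CCAAT box CCAAT, the TATA box TATAAA and their reverse complements, and capitals of neighbouring matches run together.
Mmp14, plus strand, chr14:54431348-54431597: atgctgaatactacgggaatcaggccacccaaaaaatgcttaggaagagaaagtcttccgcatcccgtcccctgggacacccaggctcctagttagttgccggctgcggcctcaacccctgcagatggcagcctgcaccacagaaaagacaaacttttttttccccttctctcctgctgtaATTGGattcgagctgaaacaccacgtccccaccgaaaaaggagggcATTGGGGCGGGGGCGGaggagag
Timp3, plus strand, chr10:86300162-86300371: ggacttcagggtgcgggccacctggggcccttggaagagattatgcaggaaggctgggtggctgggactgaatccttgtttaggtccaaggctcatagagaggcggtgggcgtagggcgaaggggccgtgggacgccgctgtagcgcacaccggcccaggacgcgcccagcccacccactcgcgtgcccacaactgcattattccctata
Adamts1, minus strand, chr16:85803114-85803363: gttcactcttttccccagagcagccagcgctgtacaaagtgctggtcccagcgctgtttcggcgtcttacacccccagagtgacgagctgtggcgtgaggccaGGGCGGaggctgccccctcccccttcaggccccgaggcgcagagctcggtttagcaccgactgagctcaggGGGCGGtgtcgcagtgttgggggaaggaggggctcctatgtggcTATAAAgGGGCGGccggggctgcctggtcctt
In the 250 bases before its start site Mmp14 held 2 GC boxes, at -19 and -13, each written from its first base to the start site, and 2 CCAAT boxes on the opposite strand. Adamts1 held 3 GC boxes and a TATA box at -32. Timp3 held 1 GC box, at -15 on the opposite strand, which lies in the stretch not printed. A GC box on either strand stood in 32.7% of the same 250-base windows of 32851 RefSeq promoters, a CCAAT box in 33.8% and a TATA box in 12.4%. The AP-1 motif TGANTCA, searched on both strands, was in none of the 7 windows and in 6.75% of all. These matches describe letters in a window and were not tested as binding sites.

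Library depth, in reads assigned to genes, was 37252939 to 52528747 in atrasentan-treated mice, 35938445 to 40268662 in saline-treated mice and 29161833 to 40965108 in wild type mice. The atrasentan libraries stood apart as a group: they held reads of 21396 to 23081 genes, against 24335 to 25313 with saline and 23901 to 24877 in wild type. Reads outside genes made up 3.17% to 5.65% of all reads in atrasentan libraries, 5.95% to 8.17% in saline libraries and 6.26% to 8.58% in wild type libraries. Markers of glomerular cells were present in all libraries, and the podocyte list of 12 genes summed to 2182 to 4787 CPM (read counts scaled to library size) with atrasentan, 4435 to 9116 with saline and 8274 to 12978 in wild type. The proximal tubule list of 12 genes summed to 207 to 1638 CPM with atrasentan, 2107 to 10179 with saline and 1235 to 2726 in wild type. In such bulk samples fewer cells of a type and less RNA per cell cannot be told apart. The labels count as many mice as libraries in each group, so errors are taken as those between animals. The atrasentan group is set against both others, so the comparisons share libraries and are not independent of each other.

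To compare genes with each other, counts were divided by the length of all exons of a gene and scaled to TPM, a measure of transcript abundance per length. Timp3 and Timp2 stood at the top in every group. Timp3 averaged 1875 ± 506 TPM with atrasentan (SD, n = 7), 1701 ± 292 TPM with saline (n = 5) and 1125 ± 216 TPM in wild type (n = 5). Timp2 averaged 1068 ± 293 TPM with atrasentan, 780 ± 163 TPM with saline and 977 ± 190 TPM in wild type, and its range overlapped that of Timp3 in the atrasentan and wild type groups, but not in the saline group. Adamts1, with 352 ± 96.9, 378 ± 73.4 and 340 ± 131 TPM in the same order of groups, and Mmp2, with 413 ± 106, 241 ± 43.3 and 196 ± 49.96 TPM, came next. Adamts5, Mmp14 and Adam10 followed, with group means between 94.8 and 184 TPM, and their ranges overlapped with those of their neighbours among these 3 genes in every group. Adam17 stood at 54.6 to 55.7 TPM in the group means. Timp1 and Mmp9 were far lower, with group means of 4.75 to 7.02 TPM and 2.21 to 6.41 TPM. Timp1 is thus the least abundant of the 3 TIMPs, and Timp3 made up 63.5% ± 4.17 of their summed TPM in atrasentan-treated mice, 68.5% ± 4.46 in saline-treated mice and 53.4% ± 2.96 in wild type mice. Levels and shares depend on the length used. With the longest transcript instead, means over 17 libraries were 2129 TPM for Timp3 and 773 TPM for Timp2. Mmp14, at 176 TPM, then stood above Adamts5, at 114 TPM.

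**Figure D1:**
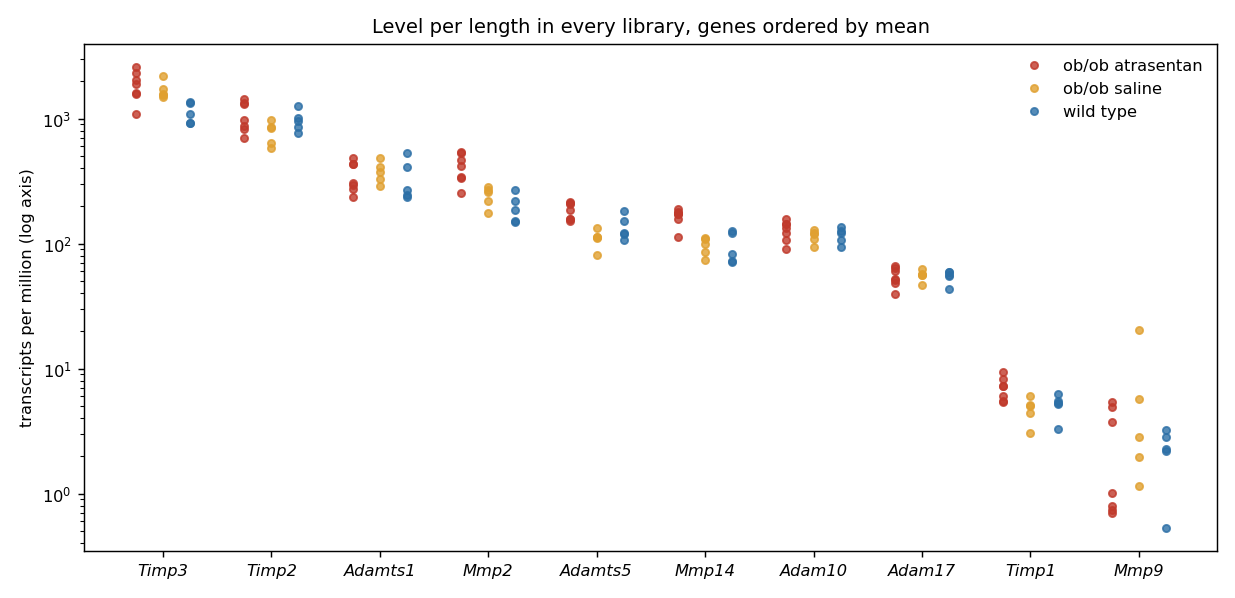
Level per length of each of the 10 genes in TPM on a log axis, 1 point per library, coloured by group and ordered by the mean over 17 libraries. Timp3 and Timp2 lie at the top, and Timp1 and Mmp9 lie lowest, with group means of at most 7.02 TPM.

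In the tests between groups, edgeR called 1 of the 10 genes higher in saline-treated ob/ob than in wild type mice, against 5.12% of all genes tested called in that comparison, 3.21% of them higher and 1.91% lower. With atrasentan against saline 5 of the 10 were called higher, against 33.8% of all genes, 15.3% higher and 18.5% lower, and with atrasentan against wild type 6 were called higher, against 29.2% of all genes, 14.7% higher and 14.5% lower. None of the 10 was called lower in any comparison, and 9, 5 and 4 did not pass. At an unadjusted p under 0.05 (edgeR) 3, 6 and 8 of the 10 were higher and 0 lower, where 21.5%, 44.9% and 40.8% of all genes passed in either direction. DESeq2 called 0 of the 10 lower as well. Of all genes, 570 were higher and 340 lower with saline than in wild type, 2713 and 3288 with atrasentan than with saline, and 2619 and 2571 with atrasentan than in wild type. With upper-quartile scaling these were 503 and 483, 2568 and 3297, and 1897 and 3153. The groups did not overlap in CPM for 1 gene of the 10 with saline against wild type (7.42% of all genes), for 3 with atrasentan against saline (11.8%) and for 4 with atrasentan against wild type (13.2%). The median log2 fold change of the 10 genes was 0.17, 0.40 and 0.54 in the 3 comparisons, where that of all genes tested was 0.0056, -0.0051 and -0.0088.

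**Figure D2:**
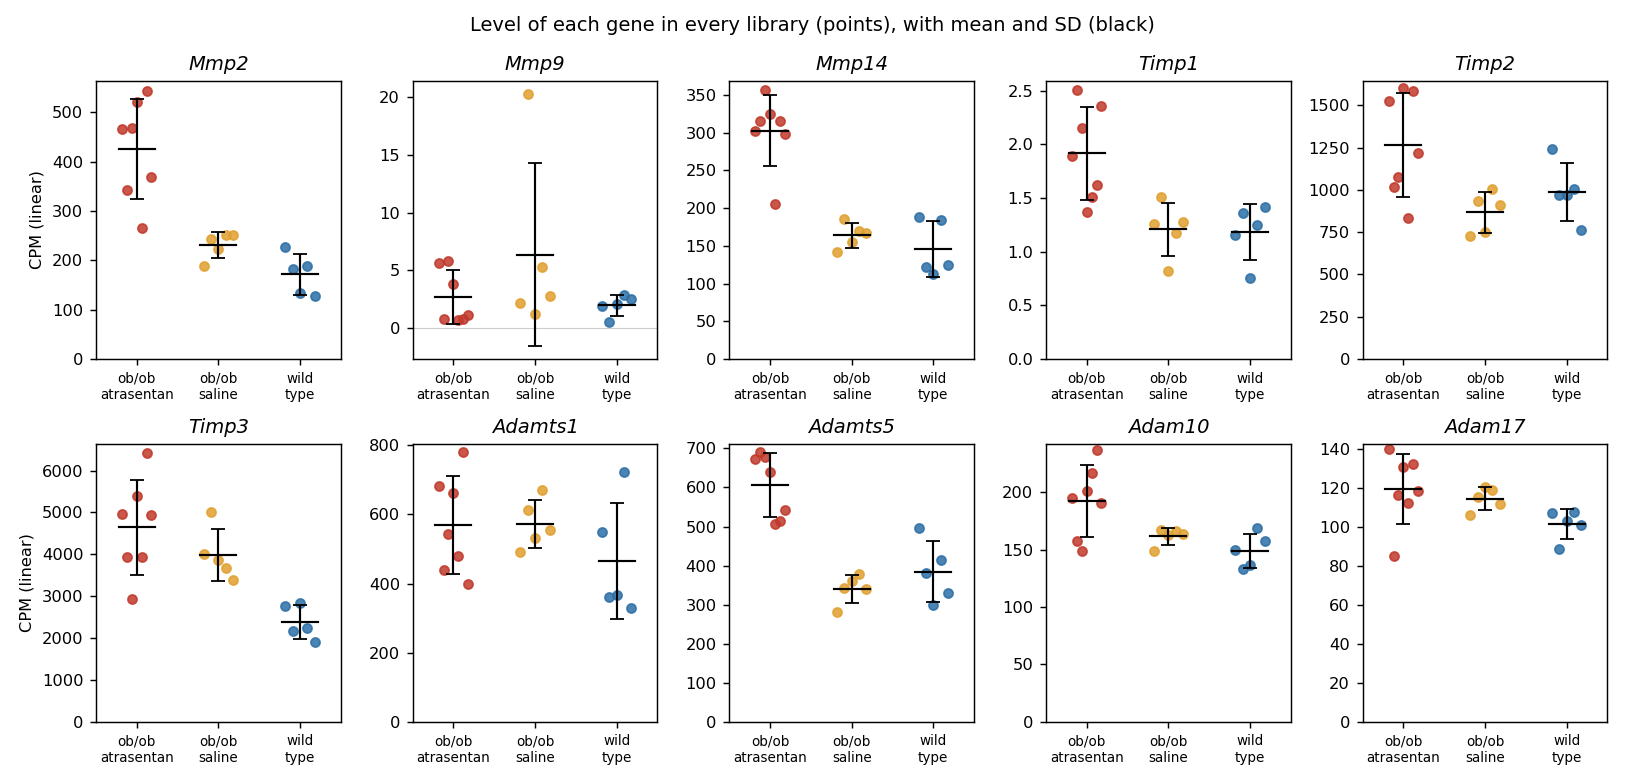
CPM of each gene in every library on linear axes, with atrasentan on the left, saline in the middle and wild type on the right. Points are mice and black bars are the mean and SD. All atrasentan points of Mmp2, Mmp14 and Adamts5 lie above the points of both other groups.

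Mmp2 and its activator Mmp14 were both higher with atrasentan than in either other group. Mmp2 (ENSMUSG00000031740.8, plus strand, chr8:92827291-92853420), the gelatinase that cuts denatured collagen and collagen IV, ranged from 266 to 543 CPM with atrasentan, with a median of 466 CPM. Its levels were 189, 243, 222, 252 and 252 CPM with saline, and 227, 182, 133, 189 and 128 CPM in wild type. All 7 atrasentan libraries lay above all others, while the saline and wild type ranges overlapped. Mmp2 averaged 425 ± 102 CPM with atrasentan (SD, n = 7), 232 ± 26.5 CPM with saline and 172 ± 41.4 CPM in wild type (n = 5 each). The log2 fold change was 0.88 ± 0.18 (SE) for atrasentan over saline (edgeR adjusted p = 0.00155) and 1.31 ± 0.18 for atrasentan over wild type (edgeR adjusted p = 7.36e-05). Saline over wild type gave 0.43 ± 0.19, which did not pass (edgeR adjusted p = 0.186).

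Mmp14 (ENSMUSG00000000957.11, plus strand, chr14:54431612-54445364), the membrane-bound collagenase, ranged from 206 to 356 CPM with atrasentan, with a median of 315 CPM. It stood at 142, 186, 155, 170 and 167 CPM with saline and at 189, 122, 112, 185 and 124 CPM in wild type. Again every atrasentan library was above every other one, although atrasentan library 5, at 206 CPM, was near the highest wild type library. The log2 fold change was 0.88 ± 0.15 over saline and 1.05 ± 0.15 over wild type (edgeR adjusted p = 0.000481 and 0.000100). Saline over wild type was 0.16 ± 0.16 and did not pass (edgeR adjusted p = 0.609). The calls of Mmp2 and Mmp14 in both atrasentan comparisons were kept whichever of the 17 libraries was left out, with log2 fold changes of at least 0.81 for Mmp2 and 0.84 for Mmp14. Over wild type, Mmp2 lost its call with the share of reads outside genes (1.01, edgeR adjusted p = 0.174) or the macrophage mean (0.97, adjusted p = 0.147) as a covariate, and Mmp14 with the macrophage mean (0.77, adjusted p = 0.156).

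Timp2 (ENSMUSG00000017466.9, minus strand, chr11:118301069-118355740), which both bridges and inhibits that pair, was higher with atrasentan than with saline but was not called against wild type with all 17 libraries. It ranged from 836 to 1600 CPM with atrasentan, with a median of 1219 CPM. The values were 729, 934, 754, 1007 and 912 CPM with saline and 1244, 970, 968, 1004 and 763 CPM in wild type. The atrasentan range overlapped both others, and the lowest atrasentan library was again number 5. The log2 fold change was 0.55 ± 0.17 over saline (edgeR adjusted p = 0.0179) and 0.35 ± 0.16 over wild type (edgeR adjusted p = 0.114). The first call was lost without saline library 1 (0.49, edgeR adjusted p = 0.0545) or 3 (0.50, adjusted p = 0.0522), and the second was made without atrasentan library 5 (0.43, adjusted p = 0.0369). Saline over wild type was -0.19 ± 0.18 (edgeR adjusted p = 0.594).

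The ratio of Timp2 to Mmp2 in TPM, which compares an inhibitor with its enzyme within each library, was 2.59 ± 0.29 in atrasentan-treated mice, 3.24 ± 0.21 in saline-treated mice and 5.07 ± 0.71 in wild type mice (SD, n = 7, 5 and 5). Its ranges were 1.99 to 2.85, 2.93 to 3.46 and 4.59 to 6.28, so no 2 groups overlapped. The ratio of Timp2 to Mmp14 was 6.42 ± 1.29, 8.08 ± 0.64 and 10.6 ± 2.02 in the same order of groups, where the atrasentan range, 4.64 to 7.70, lay below the wild type range, 8.31 to 13.2, and the saline range overlapped both. Mmp2 stood at 2.48 ± 0.40, 2.50 ± 0.16 and 2.10 ± 0.34 times the level of Mmp14. These ratios were formed after the levels were seen and are given without a test. Their size also depends on the length used, which multiplies a ratio by the same factor in every library. With the longest transcript as length, the means over 17 libraries were 252 TPM for Mmp2, 176 TPM for Mmp14 and 773 TPM for Timp2. Across the 17 libraries the Pearson r of log2 CPM between Mmp2 and Mmp14 was 0.94, and it was 0.78 after each group's mean was taken out. Between Mmp2 and Timp2 these values were 0.76 and 0.87, as a description over libraries that share groups and depth.

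**Figure D3:**
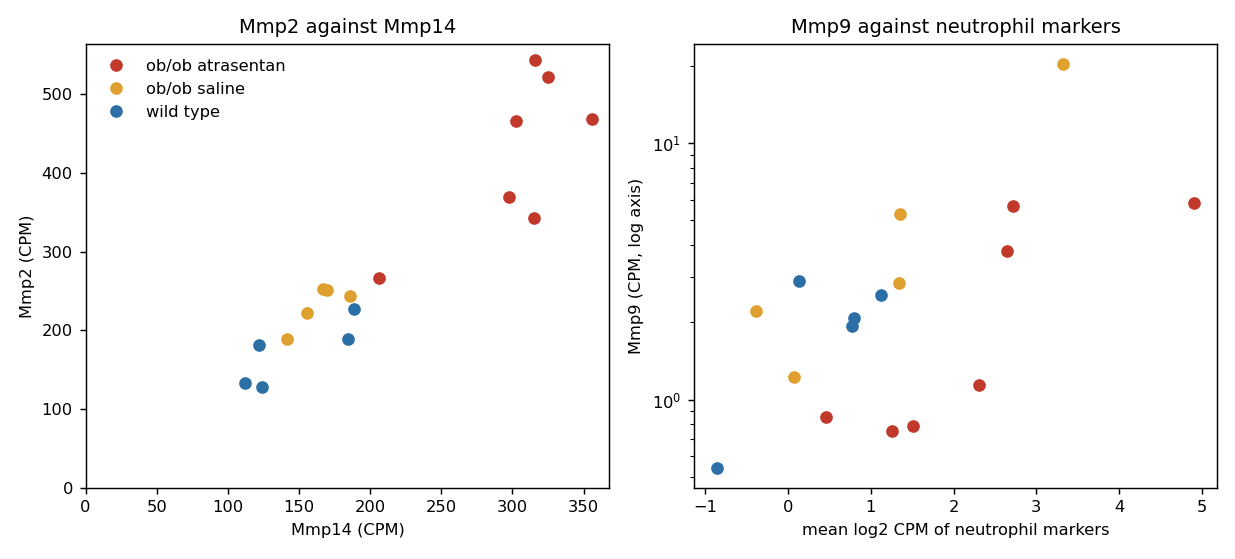
Left, Mmp2 against Mmp14, both in CPM, in each of the 17 libraries. Right, Mmp9 in CPM on a log axis against the mean log2 CPM of 7 neutrophil markers. The atrasentan libraries lie highest in Mmp2, between 266 and 543 CPM, and the saline library at 20.3 CPM of Mmp9 has the highest neutrophil mean of its group.

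Markers of several cell types also differed between the groups. The 12 mesangium and smooth muscle markers summed to 8039 to 13912 CPM with atrasentan, 5755 to 7939 CPM with saline and 5175 to 6869 CPM in wild type, and none was at 0. The 10 macrophage markers, none at 0, summed to 485 to 1680 CPM with atrasentan, 291 to 499 CPM with saline and 295 to 738 CPM in wild type. The 12 glomerular endothelium markers, none at 0, summed to 14470 to 18718 CPM with atrasentan, 9965 to 13012 CPM with saline and 11259 to 12900 CPM in wild type, so the atrasentan range lay above both others. The 5 red cell markers, none at 0, summed to 260 to 924 CPM with atrasentan, 68.1 to 382 CPM with saline and 95.1 to 451 CPM in wild type. With atrasentan over saline 5 of 12 mesangium, 8 of 10 macrophage, 9 of 12 endothelium and 4 of 5 red cell markers were called higher and none lower. Of all genes tested 33.8% were called in that comparison, 15.3% higher and 18.5% lower. The part of the endothelium and red cell markers in these results was not tested. Once group means were taken out, the Pearson r of Mmp2, Mmp14 and Timp2 was 0.57, 0.35 and 0.56 with the mesangium mean. With the macrophage mean it was 0.30, 0.30 and -0.013, and with the endothelium mean -0.26, -0.037 and -0.19. With the red cell mean it was -0.084, -0.068 and -0.14. With the podocyte mean it was 0.47, 0.087 and 0.75, so that of Timp2 was above its value with the mesangium mean. Of the 12 podocyte markers, 7 were lower and 0 higher with atrasentan than with saline. With the mean of 6 fibroblast markers it was 0.50, 0.15 and 0.40. In a fit that also held the mean of the proximal tubule markers, only 3 genes of all those tested were called with atrasentan against saline, none of them among the 10. The log2 fold changes in that fit were 0.95 for Mmp2, 0.74 for Mmp14 and 0.45 for Timp2 (edgeR adjusted p = 0.213, 0.251 and 0.521). With the mesangium mean as a covariate the values were 0.55, 0.73 and 0.25, and of the 3 genes only Mmp14 passed (edgeR adjusted p = 0.0662, 0.0162 and 0.354). With the macrophage mean they were 0.61, 0.66 and 0.56 and none passed (edgeR adjusted p = 0.217, 0.112 and 0.252). Over the 30 alternatives run, covariates included, the adjusted p of atrasentan over saline ran from 4.24e-05 to 0.318 for Mmp2, from 1.50e-06 to 0.251 for Mmp14 and from 0.00523 to 0.721 for Timp2. The covariates themselves differ between the groups, so the 2 cannot be told apart in these fits.

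Timp3 (ENSMUSG00000020044.13, plus strand, chr10:86300372-86349506), the matrix-bound TIMP, was the single gene of the 10 called with saline against wild type. It stood at 4006, 5023, 3866, 3672 and 3376 CPM with saline and at 2762, 2173, 2836, 2241 and 1895 CPM in wild type, and these ranges did not overlap. With atrasentan it ranged from 2944 to 6417 CPM, with a median of 4936 CPM, above every wild type library and across the saline range. The log2 fold change was 0.74 ± 0.18 for saline over wild type (edgeR adjusted p = 0.0306) and 0.96 ± 0.17 for atrasentan over wild type (edgeR adjusted p = 0.000586). Atrasentan over saline was 0.22 ± 0.17 and did not pass (edgeR adjusted p = 0.330). The call of saline against wild type was lost without saline library 1 or 3 or without wild type library 2, 4 or 5, with log2 fold changes between 0.67 and 0.76 and edgeR adjusted p between 0.0581 and 0.0875. It was also lost once the mean of the proximal tubule markers entered the fit (0.70, edgeR adjusted p = 0.231). The call of atrasentan over wild type was lost with the share of reads outside genes (0.59, edgeR adjusted p = 0.422) or the mesangium mean (0.69, adjusted p = 0.0975) as a covariate. The exons of Timp3 share 1733 bases with Syn3 on the opposite strand, which had at most 224 reads in a library, against at least 64307 for Timp3.

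The ratio of Timp3 to its target Adam17 in TPM was 34.3 ± 6.91 in atrasentan-treated mice, 30.7 ± 5.00 in saline-treated mice and 20.6 ± 3.16 in wild type mice, and each of the saline libraries lay above each wild type library. The ratio of Timp3 to Adamts5 was 10.5 ± 3.44 in atrasentan-treated mice, 15.7 ± 3.19 in saline-treated mice and 8.45 ± 2.30 in wild type mice, and here the saline libraries, at 12.9 to 19.4, lay above the wild type libraries, at 7.16 to 12.6. The atrasentan libraries, at 5.76 to 16.5, overlapped both. These ratios too are descriptions whose size depends on the length used. With the longest transcript as length, the means over 17 libraries were 2129 TPM for Timp3, 67.7 TPM for Adam17 and 114 TPM for Adamts5.

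Timp1 (ENSMUSG00000001131.11, plus strand, chrX:20870166-20874735), the inducible TIMP that rises in many forms of kidney fibrosis, was barely above detection in all 3 groups. It had 55 to 92 reads in atrasentan libraries, 29 to 54 in saline libraries and 24 to 52 in wild type libraries. That came to 1.92 ± 0.44 CPM with atrasentan, 1.21 ± 0.25 CPM with saline and 1.19 ± 0.26 CPM in wild type, and the ranges overlapped in each comparison. The log2 fold change was 0.66 ± 0.23 over saline and 0.69 ± 0.23 over wild type (edgeR adjusted p = 0.0339 and 0.0313), and 0.03 ± 0.25 for saline over wild type (edgeR adjusted p = 0.971), a value that was -0.049 with upper-quartile scaling. Both calls were close to the threshold. The first was lost without atrasentan library 2, 3 or 7 or saline library 1, 3, 4 or 5 (edgeR adjusted p up to 0.102). The second was lost without atrasentan library 2, 3 or 7 or wild type library 1, 3 or 4 (edgeR adjusted p up to 0.0924) and with upper-quartile scaling (adjusted p = 0.0639). Without a low-count filter both were lost (edgeR adjusted p = 0.0830 over saline and 0.0857 over wild type), as they were with the groups compared fitted alone (0.0565 and 0.0614). Each covariate that was tried ended both calls, and with the proximal tubule mean the log2 fold change was 0.12 over saline and 0.40 over wild type (edgeR adjusted p = 0.933 and 0.363). Timp1 lies inside Syn1, which runs on the opposite strand and shares no exon base with it.

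Of the secreted ADAMTS pair, Adamts5 was higher with atrasentan and Adamts1 was not called. Adamts5 (ENSMUSG00000022894.5, minus strand, chr16:85856173-85901828), the aggrecanase, ranged from 506 to 691 CPM with atrasentan, with a median of 639 CPM. It stood at 281, 343, 360, 378 and 339 CPM with saline and at 497, 382, 299, 415 and 329 CPM in wild type. All atrasentan libraries were above all others, though the highest wild type library came close. The log2 fold change was 0.83 ± 0.13 over saline and 0.66 ± 0.13 over wild type (edgeR adjusted p = 0.000312 and 0.00111), and both calls held whichever library was left out. Saline over wild type was -0.18 ± 0.14 and did not pass (edgeR adjusted p = 0.502). With the macrophage mean as a covariate neither atrasentan comparison passed (0.64 and 0.41, edgeR adjusted p = 0.0839 and 0.419). The call over saline was also lost with the proximal tubule mean (0.60, edgeR adjusted p = 0.281), and that over wild type with the share of reads outside genes or the mesangium mean (0.93 and 0.60, adjusted p = 0.0761 and 0.0792).

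Adamts1 (ENSMUSG00000022893.14, minus strand, chr16:85793827-85803113), a close neighbour of Adamts5 that cuts versican and is induced quickly by stress signals, ranged from 398 to 780 CPM with atrasentan, from 491 to 670 CPM with saline and from 329 to 724 CPM in wild type. Its log2 fold changes were -0.0095 ± 0.20, 0.29 ± 0.20 and 0.30 ± 0.22 for atrasentan over saline, atrasentan over wild type and saline over wild type (edgeR adjusted p = 0.977, 0.299 and 0.473). The wild type libraries fell apart, with 550 and 724 CPM in libraries 1 and 4 and 329 to 367 CPM in the other three. Of 12 immediate early genes, which respond within minutes to tissue handling, 10 were lower with atrasentan than with saline, where 18.5% of all genes were lower. The 12 summed to 2940 to 5015 CPM with atrasentan, 6512 to 15190 CPM with saline and 4063 to 12060 CPM in wild type. With their mean as a covariate Adamts1 was 0.57 over saline (edgeR adjusted p = 0.196) and 0.62 over wild type (edgeR adjusted p = 0.0413). The ratio of Adamts5 to Adamts1 in TPM was 0.55 ± 0.15 in atrasentan-treated mice, 0.29 ± 0.024 in saline-treated mice and 0.43 ± 0.093 in wild type mice.

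Of the membrane sheddases, Adam10 was called in 1 comparison and Adam17 in none. Adam10 (ENSMUSG00000054693.14, plus strand, chr9:70678997-70780229), the main sheddase of Notch receptors and cadherins, ranged from 149 to 237 CPM with atrasentan, from 149 to 167 CPM with saline and from 133 to 169 CPM in wild type. Its log2 fold change over wild type was 0.37 ± 0.11 with atrasentan (edgeR adjusted p = 0.0146), a call that missed the threshold with upper-quartile scaling (0.29, edgeR adjusted p = 0.0513). It was also lost with the share of reads outside genes, the mesangium mean or the macrophage mean as a covariate (0.29, 0.36 and 0.58, edgeR adjusted p = 0.564, 0.174 and 0.161). Atrasentan over saline was 0.25 ± 0.11 and did not pass (edgeR adjusted p = 0.0724), but passed without atrasentan library 2 (0.30, adjusted p = 0.0355) or 3 (0.31, adjusted p = 0.0245). Adam17 (ENSMUSG00000052593.15, minus strand, chr12:21323509-21373632), which releases TNF and ligands of the EGF receptor, ranged from 85.2 to 140 CPM with atrasentan, from 106 to 121 CPM with saline and from 88.9 to 108 CPM in wild type. It was called in no comparison (edgeR adjusted p = 0.663, 0.0872 and 0.383 for atrasentan over saline, atrasentan over wild type and saline over wild type). The second comparison passed without atrasentan library 2, the lowest of the 17 (0.30, edgeR adjusted p = 0.00785). The SE of these differences was 0.10 to 0.11 on the log2 scale. Adam17 shares 311 exon bases with Iah1 on the opposite strand, which had up to 2984 reads in a library.

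**Figure D4:**
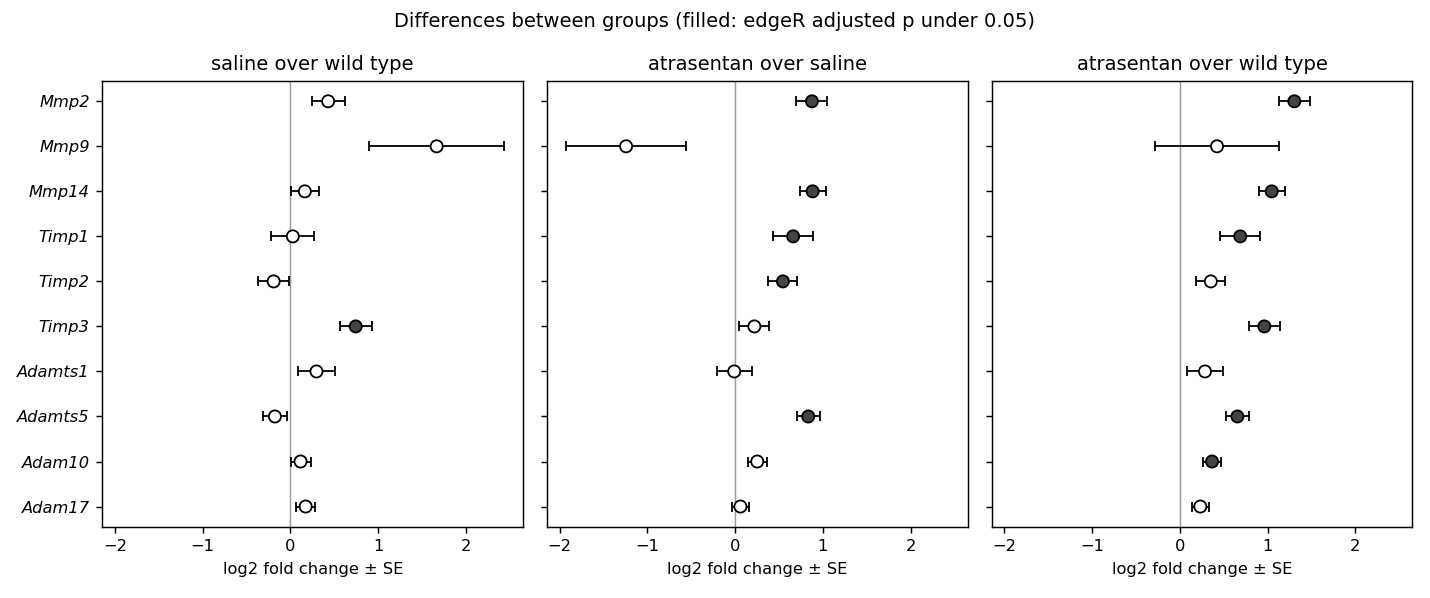
Log2 fold change of each gene in the 3 comparisons, with its standard error. Filled points were called at an edgeR adjusted p under 0.05. Of the 10 genes, 1, 5 and 6 are filled from left to right, all on the positive side, and Mmp9 has the widest bars.

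Mmp9 (ENSMUSG00000017737.2, plus strand, chr2:164940780-164955850), the gelatinase that neutrophils store in granules, varied most between mice. It stood at 0.756 to 5.83 CPM with atrasentan, with a median of 1.13 CPM. It was at 2.21, 20.3, 1.22, 5.29 and 2.83 CPM with saline and at 1.93, 0.543, 2.09, 2.89 and 2.56 CPM in wild type. Saline library 2 stood above all the others, and the 3 ranges overlapped. Atrasentan over saline was -1.24 ± 0.68, atrasentan over wild type 0.42 ± 0.71 and saline over wild type 1.67 ± 0.77, and none passed (edgeR adjusted p = 0.168, 0.691 and 0.215). Without saline library 2 the first and the last were -0.10 and 0.53 (edgeR adjusted p = 0.910 and 0.729). That library also had the highest sum of the 10 neutrophil markers in its group, at 178 CPM, against 10.8 to 31.4 CPM in the other saline libraries, and the sums ran from 15.9 to 320 CPM with atrasentan and from 17.4 to 32.4 CPM in wild type. Of these markers, S100a8 and S100a9 reached 85.5 and 96.4 CPM with atrasentan, 49.4 and 67.3 CPM with saline and 5.95 and 7.99 CPM in wild type. The precursor-stage genes Mpo and Elane reached at most 0.595 CPM in a library and were at 0 in others. Mmp9 and the mean of 7 neutrophil markers had a Pearson r of 0.63 over 17 libraries, and of 0.86 once group means were taken out. Atrasentan library 3 had the highest neutrophil mean of the 17, at 4.90 on the log2 scale, with Mmp9 at 5.83 CPM. Its marker sum was 320 CPM, and the next highest atrasentan library had 61.9 CPM. Saline library 2 had a mean of 3.32. With the neutrophil mean as a covariate Mmp9 was lower with atrasentan than with saline (-1.96, edgeR adjusted p = 0.00300) and lower than in wild type (-1.50, edgeR adjusted p = 0.0341). Without this covariate neither comparison passed, and the value over wild type was positive, at 0.42. The covariate was chosen after the data were seen. Its group averages also differed, at 2.26 ± 1.42 for atrasentan-treated, 1.14 ± 1.44 for saline-treated and 0.40 ± 0.78 for wild type mice. This fit therefore cannot separate a group difference in Mmp9 from one in neutrophil markers.

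For each of the 10, the 3 genes with the most alike pattern over the 17 libraries were named by Pearson r of log2 CPM, as a description. For Mmp2 these were Man1c1, P3h3 and Cd248 (r = 0.97 each), and for Mmp14 they were the collagen receptor Ddr2, the endocytic receptor Lrp1 and the collagen chaperone Fkbp10 (r = 0.97, 0.97 and 0.96). Adamts5 was followed by Cygb, Rcn3 and Unc93b1 (r = 0.93 each), which fell to 0.67 to 0.68 once group means were taken out. Mmp9 was followed by Adam8, Dhrs9 and Chil1 (r = 0.86, 0.85 and 0.83), and for these r was 0.90, 0.85 and 0.94 once group means were taken out. Timp1 was most like Isg20, Bst2 and Hfe (r = 0.93, 0.90 and 0.90), of which Isg20 and Bst2 are induced by interferon. Timp2 was most like Arhgap1, Ptger4 and Ehd2 (r = 0.94, 0.93 and 0.93), and Timp3 most like Map4k3, Mthfd1l and the clock gene Cry1 (r = 0.95, 0.94 and 0.93). Adamts1 was nearest to Slc9a5, Dcp1a and Zfp319 (r = 0.90, 0.88 and 0.87), Adam10 to Fam171a1, Dhx57 and Socs5 (r = 0.92, 0.92 and 0.91), and Adam17 to Pphln1, Etv6 and Washc2 (r = 0.91, 0.90 and 0.89).

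Beyond the 10, 130 other genes of the families and of their partners and substrates were listed, and 110 of them were tested. With saline against wild type 10 were higher and 8 lower, with atrasentan against saline 27 were higher and 17 lower, and with atrasentan against wild type 35 were higher and 18 lower. Of all genes tested 5.12%, 33.8% and 29.2% were called in these comparisons, and the counts of the lists that follow stand against the same shares. The median log2 fold changes were 0.18, 0.092 and 0.23. Without saline libraries 1 and 3 the first 2 splits were 2 and 0, and 12 and 13, and with DESeq2 the first was 17 and 9.

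Among 13 other MMPs tested, 4 were higher and none lower with atrasentan than with saline, where 33.8% of all genes were called. Mmp12, the macrophage elastase, averaged 10.8 ± 7.71 CPM with atrasentan and 2.22 ± 0.58 CPM with saline (log2 fold change 2.29 ± 0.50, edgeR adjusted p = 0.00263). Mmp13, a collagenase, rose by 1.84 ± 0.61, the membrane-anchored Mmp17 by 0.95 ± 0.18 and Mmp11 by 0.37 ± 0.14. With saline against wild type Mmp27 rose by 3.10 ± 0.80 at under 1 CPM, while Mmp15 and Mmp23 had log2 fold changes of -1.91 ± 0.53 and -1.10 ± 0.17. Mmp23 averaged 40.4 ± 6.72 CPM with atrasentan, 53.9 ± 14.2 CPM with saline and 116 ± 18.7 CPM in wild type. Mmp1a, Mmp1b and Mmp20 had no read in any library.

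Among 12 other ADAMs, 4 were higher and 2 lower with atrasentan than with saline, and 1 was higher and 2 lower with saline than in wild type, where 33.8% and 5.12% of all genes were called. Adam23 rose in both comparisons, with 3.32 ± 1.33 CPM with atrasentan, 1.95 ± 0.48 CPM with saline and 0.457 ± 0.142 CPM in wild type. Adamdec1, a protease of macrophages and dendritic cells, averaged 1.18 ± 0.70 CPM with atrasentan, 0.274 ± 0.147 CPM with saline and 1.06 ± 0.61 CPM in wild type. Of 18 other ADAMTS and ADAMTS-like genes 1 was higher and 1 lower with atrasentan than with saline: the procollagen peptidase Adamts2 had a log2 fold change of 0.84 ± 0.24 and Adamts6 of -0.91 ± 0.25. With saline against wild type Adamts14 and Adamts9 were higher, by 1.62 ± 0.45 and 1.24 ± 0.28, and Adamts16 was lower, at -1.44 ± 0.36.

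Of 17 inhibitors, activators and partners, 7 were higher and 2 lower with atrasentan than with saline, where 15.3% of all genes were higher and 18.5% lower. The fourth TIMP, Timp4, was higher in ob/ob mice than in wild type, at 8.45 ± 5.49 CPM with atrasentan, 4.71 ± 3.24 CPM with saline and 0.655 ± 0.276 CPM in wild type. Its log2 fold change over wild type was 3.69 ± 0.55 with atrasentan and 2.84 ± 0.55 with saline (edgeR adjusted p = 0.000128 and 0.0116). The thrombospondins Thbs1 and Thbs2, matrix proteins that bind MMP2, rose by 1.10 ± 0.35 and 0.97 ± 0.17 with atrasentan over saline. Tspan15, a tetraspanin that steers ADAM10, averaged 211 ± 36.8 CPM with saline and 390 ± 45.9 CPM in wild type, a log2 fold change of -0.89 ± 0.14 (edgeR adjusted p = 0.00354). Tspan33 and the proprotein convertase Pcsk6 had -2.26 ± 0.45 and -1.87 ± 0.46 with atrasentan over saline. Their patterns over the 3 groups differed. Tspan33 averaged 7.09 CPM with atrasentan, 34.1 CPM with saline and 7.56 CPM in wild type, and was called higher with saline over wild type (2.17 ± 0.51, edgeR adjusted p = 0.0254). Pcsk6 averaged 17.1 CPM with atrasentan, 62.5 CPM with saline and 95.5 CPM in wild type.

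Of 8 further metalloproteases tested, 1 was higher and 4 were lower with atrasentan than with saline, in the comparison in which all 12 proximal tubule markers were lower too. The lower 4 were Mep1a, Enpep, Anpep and Mme, with log2 fold changes of -2.16 ± 0.44, -2.06 ± 0.46, -1.50 ± 0.29 and -1.50 ± 0.28. All 4 are known from tubule brush border, while podocytes express Enpep and Mme as well. With saline over wild type Mep1a and Anpep were called higher, at 1.85 ± 0.49 and 1.36 ± 0.32, and Enpep and Mme were not called. From wild type to saline to atrasentan, mean CPM was 648, 331 and 79.1 for Enpep, and 76.2, 44.99 and 15.9 for Mme. The podocyte list likewise had its highest median sum in wild type, the proximal tubule list with saline. Which cells these differences come from was not tested. Of 24 genes for proteins shed by ADAM10 or ADAM17, 5 were higher and 5 lower with atrasentan than with saline, where 33.8% of all genes were called. The genes of largest change were among the lower ones and included Kl, Egfr and Met, at -2.59 ± 0.52, -1.77 ± 0.37 and -1.64 ± 0.37, all of them expressed by tubule cells. The part of tubule cells in these differences was not tested. With atrasentan against wild type 5 of the 24 genes were higher and 3 lower, where 29.2% of all genes were called. The higher ones included the membrane-bound chemokine Cxcl16, at 120 ± 35.3 CPM with atrasentan and 52.9 ± 8.89 CPM in wild type, and the receptor kinase Axl, at 788 ± 222 CPM with atrasentan and 404 ± 87.0 CPM in wild type.

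Of 18 matrix substrates 5 were higher and 3 lower with atrasentan than with saline, and 10 were higher and 3 lower with atrasentan than in wild type, where 33.8% and 29.2% of all genes were called. The lower 3 in the first comparison were the collagen IV chains that podocytes make, Col4a3, Col4a4 and Col4a5, at -1.45 ± 0.33, -1.07 ± 0.22 and -1.55 ± 0.33, and 7 of 12 podocyte markers were lower there as well. Whether these chains follow the podocyte markers was not tested. The small proteoglycan Bgn rose by 0.96 ± 0.15, to 726 ± 159 CPM with atrasentan against 373 ± 36.1 CPM with saline. Decorin, Dcn, was the sole matrix substrate called with saline against wild type, at 21.9 ± 3.67 CPM with saline and 9.71 ± 3.42 CPM in wild type (log2 fold change 1.17 ± 0.24, edgeR adjusted p = 0.0150).

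**Figure D5:**
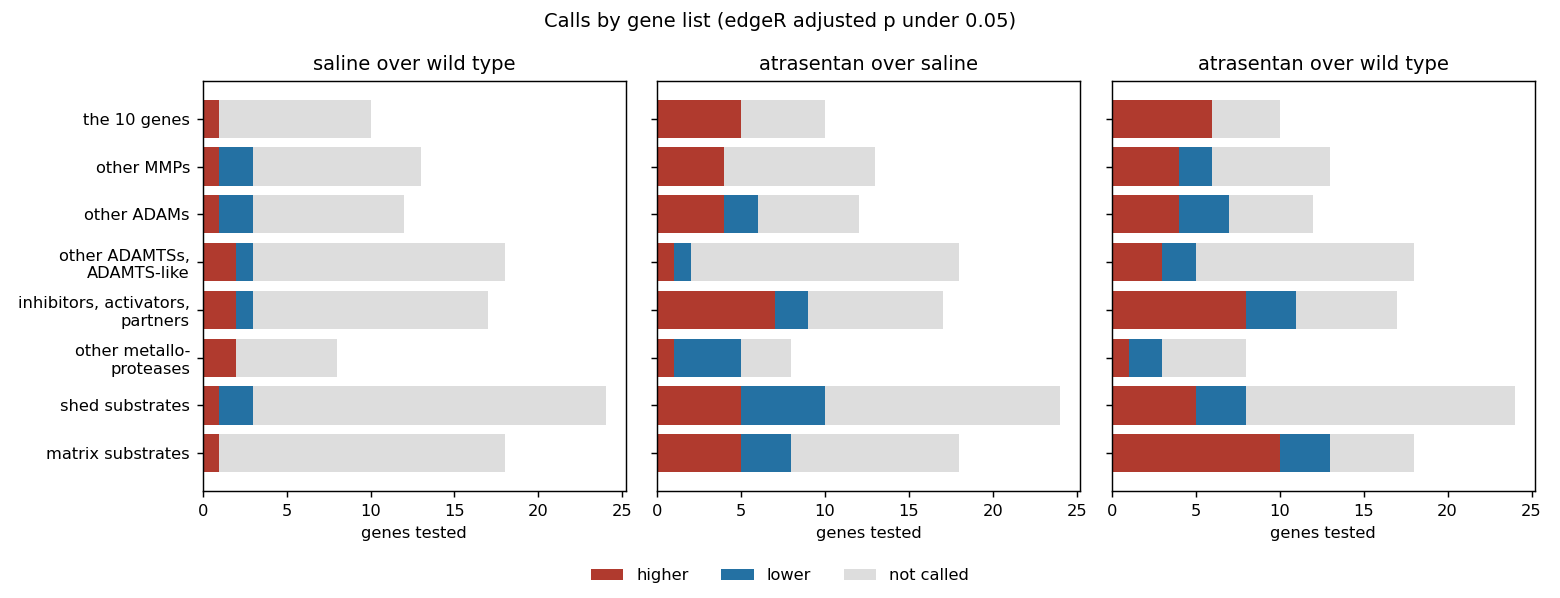
Number of genes tested in each list that were higher, lower or not called at an edgeR adjusted p under 0.05, for the 10 genes and 7 lists of other genes, in 3 comparisons. The 10 genes show no lower call in any panel, and the other metalloproteases show 4 lower calls with atrasentan over saline.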

How the data were processed

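The authors deposited raw read counts per gene for 17 libraries, from glomeruli-enriched cortex, poly(A) RNA, an Illumina TruSeq kit that does not mark strand and single-end reads, per the labels' protocols. Per the submitters' processing notes, the build was GRCm38 and the tools included HTSeq, STAR, limma, edgeR and DESeq2, with no role or version. The sources used here give neither annotation release nor strand setting. The authors also deposited a normalized log2 table of 17338 genes, whose transform is not stated and which served 1 alternative. Among the deposited counts, 5 HTSeq lines name no gene and stayed out of library sizes and tests: reads aligned to several places (23.4% to 31.8% of reads), outside genes (3.17% to 8.58%), on more than 1 gene (2.93% to 3.37%), and 2 lines at 0. GENCODE M21 gave symbols for 53274 IDs (99.8%) and the coordinates, which are 1-based.

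Tests used edgeR 4.0.16 under R 4.3.3 on the raw counts (quasi-likelihood F test, TMM factors 0.892 to 1.15, filterByExpr, 1 fit of 17 libraries, two-sided, Benjamini-Hochberg over all genes tested, called at adjusted p under 0.05). SE is the log2 fold change divided by the square root of F. CPM used TMM-scaled library sizes, and log2 CPM a prior count of 2. TPM used the union of exons. Alternatives were DESeq2 1.42.0, limma 3.58.1 with voom and on the deposited log2 table, upper-quartile scaling, no filter, the groups alone, covariates, and libraries left out. The scripts were tested on simulated data. All 41 pairs of libraries within groups differed by a chi-square per degree of freedom of at least 26.5, so each counted once. Replicate numbers follow accession order, pair nothing, and the labels give 1 batch. The mesangium, macrophage and neutrophil covariates were chosen after seeing the data. The 10 genes, the gene lists and the tests were chosen with earlier results of these data known. Named genes were the 10, up to 4 called genes of largest change per list and comparison, and the 3 of most alike pattern, and defining markers or genes at 0 could be named where a list is described. The values of 1 listed gene are not reported here.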

Additional observations from a re-analysis of the deposited data

Results flagged for a closer look

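A library far from the others of its group was looked for in 30 sets, 10 genes in 3 groups, and 3 were flagged where chance flags about 1 in 20. Mmp9 in saline library 2 stood at 20.3 CPM, with the next highest saline library at 5.29 CPM. Mmp14 in atrasentan library 5 stood at 206 CPM, with the next lowest atrasentan library at 298 CPM. Library 5 also had the lowest Mmp2, Timp2 and Adamts5 of its group. Its sum of mesangium and smooth muscle markers, at 8039 CPM, was the lowest of the group as well, and its depth, at 52528747 reads, the greatest. Whether these bear on its values was not tested. Adam10 in saline library 1 stood at 149 CPM, with the next lowest saline library at 163 CPM.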

How the results depend on the processing

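Without 1 library each, the count of all genes called ranged from 216 to 1523 with saline against wild type, from 4361 to 6338 with atrasentan against saline and from 4092 to 5622 with atrasentan against wild type, and the count among the 10 genes from 0 to 1, 3 to 5 and 5 to 7. Of all genes, saline against wild type gave 2000 calls with DESeq2, 1430 with the 2 groups alone, 550 with limma-voom, 43 with the proximal tubule mean, 74 with the immediate early mean and 409 with the share outside genes (of reads) as covariate, and 54 without saline libraries 1 and 3. In that order the last 4 settings gave 3, 1140, 1931 and 2577 calls with atrasentan against saline, and the share outside genes gave 582 with atrasentan against wild type. Among the 10 genes, saline against wild type gave 0 calls in those 4 settings and with the mesangium mean. Atrasentan against saline gave 0 with the proximal tubule mean, 3 with the immediate early mean, 2 with the share outside genes, 3 without saline libraries 1 and 3, 2 with the mesangium mean and 0 with the macrophage mean. Atrasentan against wild type gave 1 with the share outside genes, 2 with the mesangium mean and 1 with the macrophage mean. Values that changed sign were, for saline against wild type, Timp1 at -0.049 with upper-quartile scaling and -0.032 with the neutrophil mean. For atrasentan against saline they were Adamts1 at 0.37, 0.57 and 0.017 with the proximal tubule mean, immediate early mean and share outside genes, Mmp9 at 0.27 and 1.53 with the last 2 of these, Timp3 at -0.11 and Adam17 at -0.13 with the share outside genes, and Adam17 at -0.034 and -0.083 with the mesangium and macrophage means. For atrasentan against wild type they were Mmp9 at -0.84, -1.65, -1.64 and -1.50 with the proximal tubule, mesangium, macrophage and neutrophil means, and Timp2 at -0.079 and Adamts1 at -0.13 with the mesangium mean. Without 1 library, Timp1 ranged from -0.096 to 0.14 in saline against wild type and Adamts1 from -0.10 to 0.061 in atrasentan against saline. The cause was not tested for any of these. Timp1 had 24 to 92 reads per library, and whether depth bears on its lost calls was not tested. No paired analysis was possible because the labels number no replicates.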
